A study of Mus musculus with 12 samples.

Results

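TGF-β is a secreted cytokine made as 3 isoforms, encoded by Tgfb1, Tgfb2 and Tgfb3, that drives fibroblast activation and matrix deposition in the injured heart. Each isoform leaves the cell in a latent form, held by its propeptide and often linked to a latent TGF-β binding protein (LTBP), which tethers it in the extracellular matrix until integrins, proteases or thrombospondin release it. The active ligand binds the type II receptor Tgfbr2, which recruits and phosphorylates the type I receptor Tgfbr1, and the signal passes to the SMAD transcription factors. Tgfbr3 (betaglycan) is a co-receptor that presents ligand, Tgfb2 in particular, to the type II receptor, and its shed ectodomain can trap ligand. Tgfbi is a secreted matrix protein named for its induction by TGF-β.

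The genes described here are the 3 ligands, the 3 receptors, the LTBP genes Ltbp1, Ltbp2 and Ltbp3, and Tgfbi. They were chosen by symbol, and all 10 were found, each on 1 gene ID, among the 53801 genes of the deposited matrices. RNA had been sequenced from whole hearts of C57BL/6N mice in 3 groups of 4 hearts, with 1 library per heart: sham, day 1 after acute myocardial infarction (AMI) and day 7 after AMI. AMI was produced by permanent ligation of the left coronary artery in male mice aged 10 to 14 weeks at surgery. The labels do not say when sham hearts were collected. No transgene, knockout or drug was used in these 3 groups. All 10 genes passed the filter on low counts, which left 15306 genes for testing.

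The libraries held 23204551 to 32166517 counts each. Mitochondrial genes took 17.9% to 27.4% of counts in sham, 12.1% to 15.9% at day 1 and 13.2% to 19.2% at day 7. The heart label was borne out by 12 of 12 cardiomyocyte markers, whose summed level was 81412 to 97726 normalized counts (CPM, counts scaled to a common library size) in sham hearts, 53955 to 66314 at day 1 and 48587 to 57119 at day 7. The sham hearts differed among themselves in atrial markers, whose summed level ran from 105 to 915 CPM over the 4 hearts, and in erythroid markers, from 491 to 4464 CPM. Because whole hearts were sequenced, fewer cells of a type and less RNA per cell cannot be told apart.

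Levels are given on either of 2 scales. CPM, scaled by the trimmed mean of M values (TMM) in edgeR, compares 1 gene between hearts and underlies every fold change (FC) and false discovery rate (FDR). TPM, the transcript abundance the authors deposited, corrects for gene length and is used wherever the level of 1 gene is set against another. A gene was called at FDR below 0.05 over all tested genes, and a call with an FC of 2 or greater was a DEG, as the study defined it.

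In sham hearts the most abundant of the 10 transcripts was Tgfbr2, at 17.7 ± 3.77 TPM (mean ± SD, n = 4), followed by Tgfb1 at 14.7 ± 3.19 TPM, Ltbp1 at 14.5 ± 2.21 TPM and Tgfbr3 at 13.1 ± 1.30 TPM. Ltbp3 at 10.8 ± 1.48 TPM and Tgfbi at 10.04 ± 1.29 TPM came next, and over these 6 genes the ranges of neighbours overlapped, so their order was not resolved. Below them stood Tgfb3 at 6.65 ± 1.09 TPM, Tgfbr1 at 4.84 ± 0.477 TPM, Tgfb2 at 2.47 ± 0.335 TPM and, lowest, Ltbp2 at 1.13 ± 0.487 TPM, and the ranges of these neighbours were separate. By day 7 the gene that had been lowest was highest: Ltbp2 reached 78.3 ± 23.7 TPM, although its range overlapped that of Tgfb3 at 55.5 ± 14.2 TPM.

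The first question was which of these genes had moved within 1 day of AMI. Of the 10, 6 were called higher than sham, namely all 3 ligands, Tgfbr1, Ltbp2 and Tgfbi, against 22% of all tested genes. Tgfbr3 and Ltbp1 were called lower, where 19.9% of all genes were, and Tgfbr2 and Ltbp3 were not called. With library sizes alone, and in limma on log2(TPM + 1) or log2(TPM + 0.1), these were called too and 8 of the 10 were higher. The DEGs were Tgfb2, Ltbp2 and Tgfbi, all higher, with a background of 7.79%, and 0 of the 10 were DEGs in the other direction (background 2.98%). The median log2 FC was 0.54 over the 10 genes and -0.01 over all tested genes. At day 7 against sham, 8 of 10 were higher (background 30.9%), 7 of these 8 as DEGs (background 15.3%), Tgfbr3 alone was lower (background 28.4%, and 5.88% for DEGs, of which there was none) and Ltbp1 was not called. DESeq2, the tool of the study, gave 6 DEGs, as Tgfb1 stood at the FC limit. The sham and day 7 hearts did not overlap for any of these 9 called genes, 8 with higher and 1 with lower day 7 values, against 28.3% and 24.7% of all tested genes. The median log2 FC was then 1.34, beside 0.03 over all genes. Both comparisons use the same sham hearts, and the third, day 7 against day 1, shares its libraries with each of them.

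**Figure D1:**
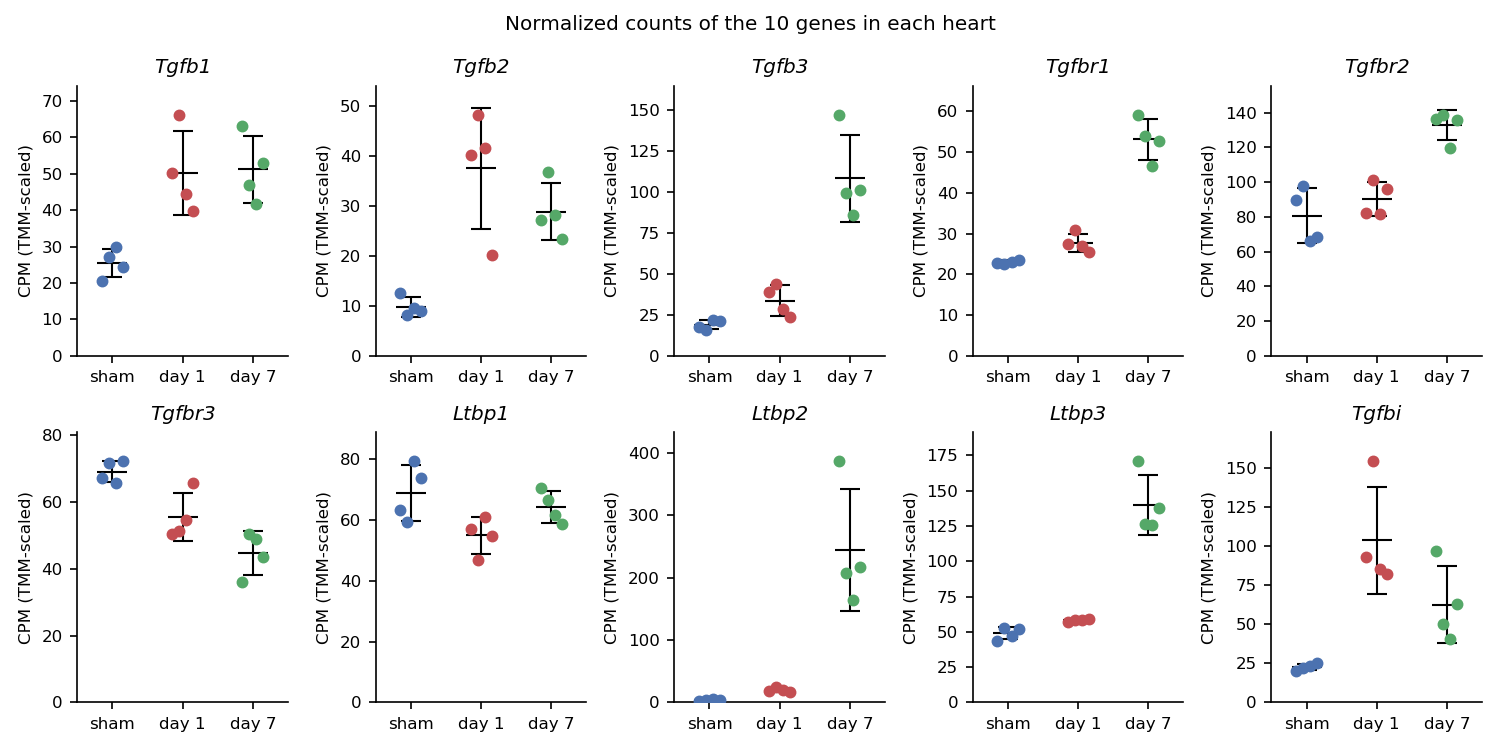
TMM-scaled CPM of the 10 genes in each heart (vertical axis, linear from 0, a scale of its own for each gene), with 4 points per group and the mean ± SD in black. Ltbp2 stayed below 5 CPM in sham and lay between 164 and 386 CPM at day 7, while Tgfbr3 stepped down from 65.7 to 72.2 CPM in sham to 36.1 to 50.3 CPM at day 7.

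The ligands followed different courses. Tgfb1 (chr7:25687002-25705077, plus strand, GRCm38), the most widely expressed isoform, measured 20.6, 27.3, 29.8 and 24.5 CPM in sham hearts 1 to 4, then 50.3, 66.2, 44.5 and 39.7 CPM at day 1 and 63.2, 47.0, 41.8 and 53.0 CPM at day 7. Every AMI heart stood above every sham heart, and the day 1 and day 7 hearts overlapped. The log2 FC was 0.97 ± 0.17 (SE) at day 1 (edgeR FDR = 0.000468) and 1.00 ± 0.17 at day 7 (edgeR FDR = 0.00013). Between day 7 and day 1 it was 0.03 ± 0.16 (edgeR FDR = 0.891). Tgfb1 therefore sat at the DEG limit on both days, at 1.96-fold and then 2.004-fold. Its day 7 log2 FC was 0.98 in DESeq2 and with RLE scaling and 0.99 with only the groups compared. It was 0.91 without sham replicate 1, 0.98 without sham replicate 4, 0.89 without day 7 replicate 1 and 0.99 without day 7 replicate 4.

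Tgfb2 (chr1:186622792-186705989, minus strand), the isoform that depends most on betaglycan, was the least abundant ligand in sham. Its sham values were 12.6, 8.09, 9.6 and 8.89 CPM, its day 1 values 40.2, 48.1, 41.6 and 20.1 CPM and its day 7 values 27.1, 36.8, 28.1 and 23.3 CPM. Sham and AMI hearts did not overlap, but the lowest day 1 heart, replicate 4, stood below all 4 day 7 hearts. Tgfb2 was 3.84-fold higher than sham at day 1 (log2 FC 1.94 ± 0.24, edgeR FDR = 5.31e-05) and 2.95-fold higher at day 7 (log2 FC 1.56 ± 0.23, edgeR FDR = 5.79e-05). The step from day 1 to day 7, -0.38 ± 0.22 on the log2 scale, was not called (edgeR FDR = 0.17), and without day 1 replicate 4 it was called at -0.59 (edgeR FDR = 0.00851).

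Tgfb3 (chr12:86056745-86079041, minus strand) rose late. In sham it measured 17.6, 15.7, 21.7 and 21.6 CPM, at day 1 39.0, 44.2, 28.5 and 23.6 CPM, and at day 7 147, 99.7, 86.1 and 101 CPM. The 3 groups formed 3 separate steps, with the lowest day 1 heart only just above the highest sham heart. The log2 FC was 0.82 ± 0.20 at day 1 (1.77-fold, edgeR FDR = 0.00526), 2.5 ± 0.21 at day 7 (5.67-fold, edgeR FDR = 3.32e-07) and 1.68 ± 0.20 between the 2 days (edgeR FDR = 1.71e-05). Exons of the antisense genes Gm48008 and Gm37804 lie over 7.60% and 4.82% of its exon bases, and these genes held 0 to 2 counts in every library.

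Summed over the isoforms, ligand mRNA was 23.8 ± 3.70 TPM in sham, 63.1 ± 14.7 TPM at day 1 and 111 ± 23.3 TPM at day 7. TPM shifted for genes in general: on log2(TPM + 0.1), the median of all tested genes was 0.31 above sham at day 1 and 0.57 at day 7. The make-up of the ligand sum changed with time. Tgfb1 supplied 61.3% ± 5.32 of it in sham, 57.3% ± 3.46 at day 1 and 39.3% ± 2.37 at day 7 (SD, n = 4). Tgfb3 supplied 28.0% ± 3.15, 23.03% ± 1.93 and 49.6% ± 2.46, so that at day 7 it exceeded Tgfb1 in each of the 4 hearts, at 1.13 to 1.39 times its TPM, where in sham it had been at 0.352 to 0.539 times. Tgfb2 supplied 10.7% ± 2.96 in sham, 19.6% ± 2.92 at day 1 and 11.1% ± 2.72 at day 7.

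Of 9 tests on these shares, 6 had no overlap between the groups and reached 0.0286, the smallest p that 4 against 4 hearts allow in a two-sided exact permutation test (adjusted p = 0.0429 over the 9). They were the fall of the Tgfb1 share at day 7 against sham (-22.1 percentage points) and against day 1 (-18.1), the rise of the Tgfb3 share against sham (21.6) and against day 1 (26.6), and the higher Tgfb2 share at day 1 against sham (8.97) and its lower share at day 7 than at day 1 (-8.51). The 3 shares of a heart make up its whole ligand TPM. A rise of 1 share therefore lowers the others, and the 9 tests are not independent. The adjusted p rests on all 6 standing at this limit. Tgfb1 TPM itself did not fall, at 14.7 in sham, 36.0 at day 1 and 43.6 at day 7. The other 3 differences were not called: -4.00 points for Tgfb1 at day 1 (exact permutation p = 0.2), -4.97 for Tgfb3 at day 1 (exact permutation p = 0.0571) and 0.458 for Tgfb2 at day 7 against sham (exact permutation p = 0.771). On shares of raw counts, which are not corrected for length, the day 1 difference of Tgfb2 was 12.3 points and not called (exact permutation, adjusted p = 0.0735), and that of Tgfb3 was -7.25 points and called (exact permutation, adjusted p = 0.0429).

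**Figure D2:**
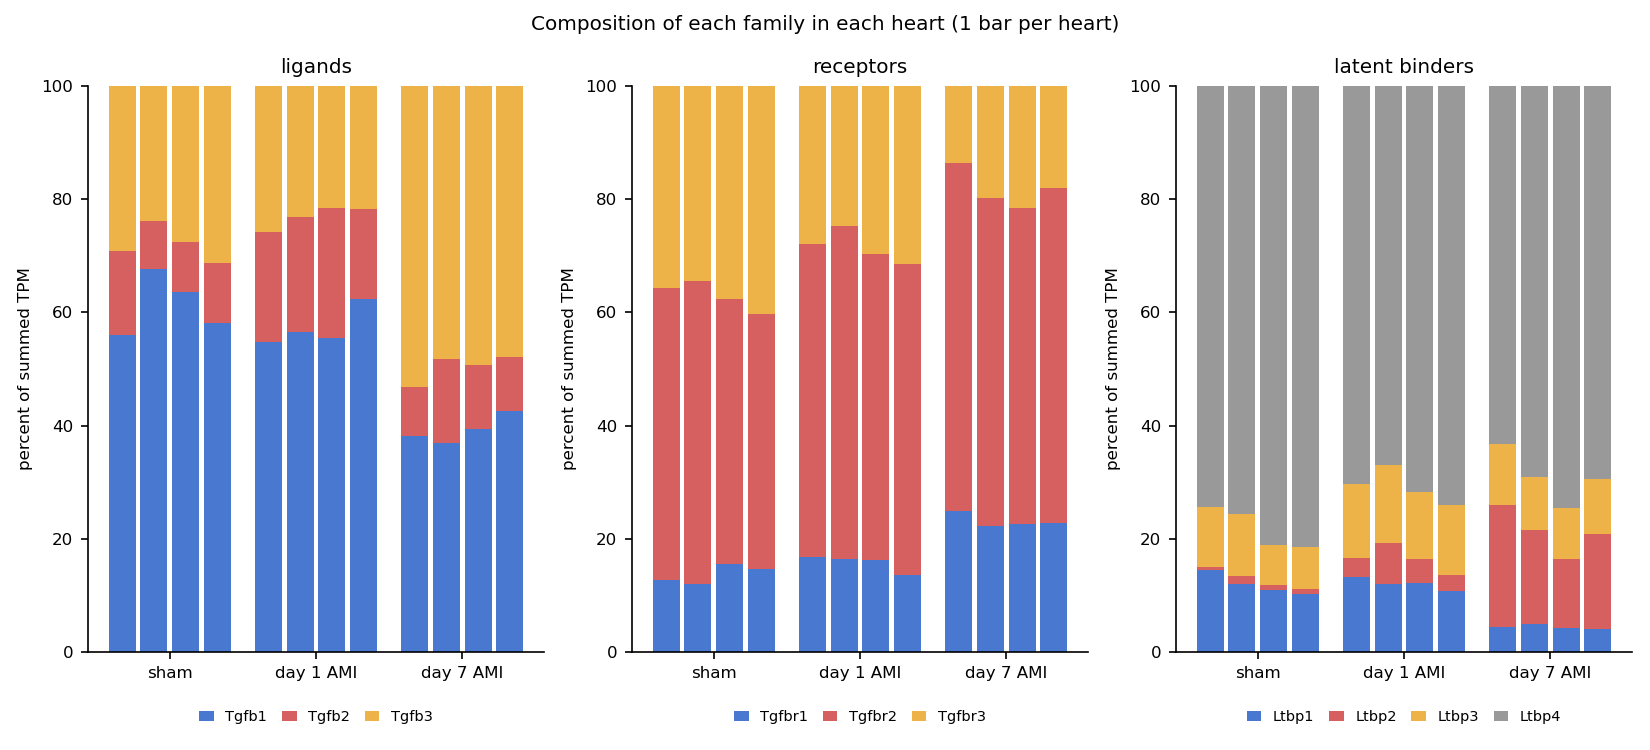
Percent of summed TPM (vertical axis) that each gene supplied within the ligands, the receptors and the latent binders, with 1 stacked bar per heart and 4 hearts per group. The Tgfb3 segment widened to 47.8% to 53.2% of ligand TPM at day 7, the Tgfbr3 segment narrowed to 13.6% to 21.5% of receptor TPM, and Ltbp2 grew from at most 1.40% to at least 12.2% of latent binder TPM.

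The receptors did not move in 1 direction, and 1 of the 3 fell. Tgfbr1 (chr4:47353222-47414931, plus strand), the type I kinase, was tightly grouped in sham at 22.8, 22.5, 23.1 and 23.6 CPM. It measured 27.4, 30.9, 26.9 and 25.5 CPM at day 1 and 59.1, 53.9, 46.6 and 52.7 CPM at day 7. The 3 groups were separate, with a small first step and a large second one. The log2 FC was 0.27 ± 0.09 at day 1 (1.20-fold, edgeR FDR = 0.0223), a call lost without day 1 replicate 2 (log2 FC 0.21, edgeR FDR = 0.0776), and 1.21 ± 0.09 at day 7 (2.31-fold, edgeR FDR = 9.69e-08).

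Tgfbr2 (chr9:116084293-116175360, minus strand), the type II kinase that binds ligand first, held 90.0, 98.0, 66.4 and 68.2 CPM in sham, 82.2, 101, 81.6 and 95.8 CPM at day 1, and 136, 139, 119.7 and 136 CPM at day 7. Sham and day 1 hearts overlapped and day 7 hearts stood above both. Its log2 FC was 0.16 ± 0.12 at day 1 (edgeR FDR = 0.314, and 0.43 with an FDR of 0.0162 with library sizes alone), 0.72 ± 0.12 at day 7 (1.64-fold, edgeR FDR = 0.000183) and 0.56 ± 0.12 from day 1 to day 7 (edgeR FDR = 0.0021).

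Tgfbr3 (chr5:107106570-107289629, minus strand), the co-receptor betaglycan, was called lower on both days, although the day 1 call rested on single hearts. It measured 67.1, 71.7, 65.7 and 72.2 CPM in sham, 50.4, 51.2, 54.5 and 65.8 CPM at day 1 and 36.1, 50.3, 49.1 and 43.6 CPM at day 7. One day 1 heart, replicate 4, reached the sham range, and no day 7 heart did. Tgfbr3 fell by 0.32 ± 0.11 on the log2 scale at day 1 (edgeR FDR = 0.0313) and by 0.63 ± 0.11 at day 7 (edgeR FDR = 0.00021). The day 1 call was lost in 5 of 8 fits that left out a heart: sham replicate 2 (edgeR FDR = 0.0626), sham replicate 4 (0.0732), or day 1 replicate 1 (0.094), 2 (0.0893) or 3 (0.0695).

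This fall depended on the scaling. Scaled by library size alone, the median of all tested genes shifts upward by 0.26 on the log2 scale at day 1 and by 0.42 at day 7 against sham, and on that scale, as in both fits to log2 TPM, none of the 10 genes was called lower in any comparison. On the TPM scale Tgfbr3 was at 13.1 ± 1.30, 13.1 ± 2.16 and 12.6 ± 1.85 in sham, day 1 and day 7 hearts. Its share of receptor TPM was lower after AMI, while the TPM of Tgfbr1 (4.84 in sham, 16.2 at day 7) and Tgfbr2 (17.7 and 41.1) was higher. Tgfbr3 made up 37.0% ± 2.55, 28.5% ± 2.81 and 18.2% ± 3.42 of receptor TPM in the 3 groups, with no overlap between any pair of groups. Tgfbr1 rose from 13.7% ± 1.63 to 15.8% ± 1.44 and 23.1% ± 1.22, and Tgfbr2 from 49.3% ± 3.96 to 55.7% ± 2.08 and 58.7% ± 2.35. These receptor shares are given without a test.

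**Figure D3:**
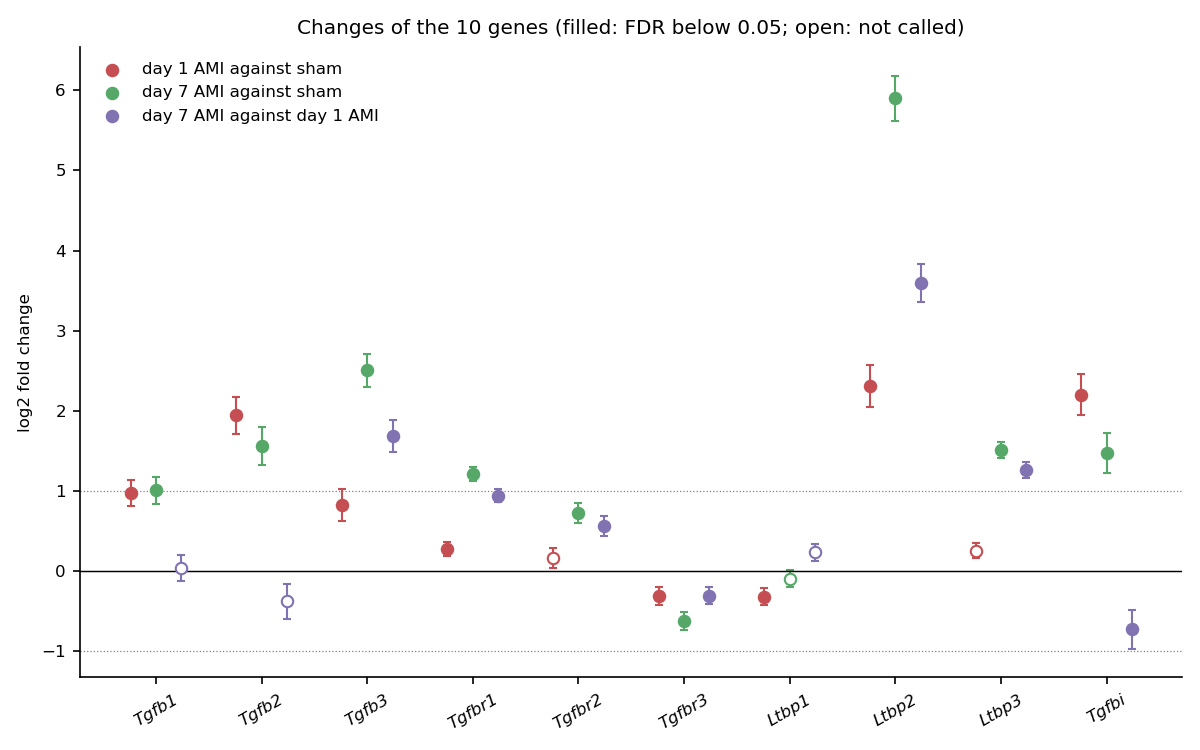
Log2 FC with its SE (vertical axis) for each of the 10 genes in the 3 comparisons, filled where edgeR FDR was below 0.05 and open where it was not, with dotted lines at an FC of 2. Ltbp2 stands apart at 5.90 at day 7, Tgfb3 and Ltbp3 gained most of their change after day 1, and Tgfbr3 lies below 0 in all 3 comparisons.

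Of the 3 LTBP genes, on the TMM scale Ltbp2 rose far, Ltbp3 rose and Ltbp1 did not. Ltbp2 (chr12:84783212-84876532, minus strand) encodes a fibrillin-associated LTBP that, unlike the others of its family, does not bind latent TGF-β itself. It was the lowest of the 10 genes in sham hearts, at 2.87, 4.6, 4.85 and 3.87 CPM (55 to 112 counts per library). At day 1 it measured 18, 25.1, 20.04 and 17.4 CPM and at day 7 it measured 386, 207, 164 and 217 CPM. The groups were far apart from one another, and day 7 replicate 1 stood well above the other 3 hearts. The log2 FC was 2.31 ± 0.26 at day 1 (4.95-fold, edgeR FDR = 3.21e-05) and 5.90 ± 0.28 at day 7 (59.9-fold, edgeR FDR = 3.92e-09), ranking 26 of 15306 from the highest. Without day 7 replicate 1 the day 7 value was 5.59. The antisense gene D030025P21Rik overlaps 9.34% of Ltbp2 exon bases, and since the strand setting of the counting was not given, its reads cannot be told apart from those of Ltbp2 there. It held 0 to 2, 2 to 4 and 7 to 20 counts per library in the 3 groups, against 4454 to 12530 for Ltbp2 at day 7.

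Ltbp3 (chr19:5740904-5758532, plus strand), which binds all 3 latent isoforms, measured 43.7, 52.7, 47.4 and 52.1 CPM in sham, 57.1, 58.7, 58.5 and 59.2 CPM at day 1 and 171, 126, 125 and 137 CPM at day 7. Its day 1 hearts all lay above its sham hearts, yet the log2 FC of 0.25 ± 0.10 was not called (edgeR FDR = 0.0545). It was called without sham replicate 2 (edgeR FDR = 0.0466), with only the groups compared (edgeR FDR = 0.025) and with library sizes alone (0.52, edgeR FDR = 0.00248). Groups without overlap and with higher day 1 values were found for 7 of the 10 genes and for 19.6% of all tested genes. At day 7 Ltbp3 was 2.86-fold higher than sham (log2 FC 1.51 ± 0.10, edgeR FDR = 5.59e-08).

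Ltbp1 (chr17:75005568-75392512, plus strand), the family member first described as part of the large latent complex, did not follow. Its values were 63.4, 59.4, 79.3 and 73.8 CPM in sham, 57.0, 46.8, 61.0 and 54.9 CPM at day 1 and 70.5, 66.7, 61.8 and 58.7 CPM at day 7. All 3 groups overlapped in CPM, while in TPM the day 7 hearts (18.33 to 22.32) lay above the sham hearts (11.95 to 17.06). Ltbp1 fell by 0.33 ± 0.11 on the log2 scale at day 1 (edgeR FDR = 0.0233), a call lost on leaving out sham replicate 3 (edgeR FDR = 0.0829), sham replicate 4 (edgeR FDR = 0.0654) or day 1 replicate 2 (edgeR FDR = 0.0795). Its day 7 log2 FC against sham of -0.10 ± 0.11 was not called (edgeR FDR = 0.443) and turned to 0.30, called, with library sizes alone (edgeR FDR = 0.0281). Both limma fits on TPM also called it higher at day 7, at 0.46 and 0.48 (limma FDR = 0.0023 for each).

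Among the 4 LTBP transcripts, Ltbp4 was the most abundant throughout, at 78.2% ± 3.71 of their summed TPM in sham, 70.8% ± 2.92 at day 1 and 69.1% ± 4.62 at day 7. Ltbp4, which is not among the 10 genes, was called lower at day 1 (log2 FC -0.45 ± 0.16, edgeR FDR = 0.0336). Its day 1 hearts, at 280 to 336 CPM, overlapped its sham hearts, at 290 to 532 CPM. At day 7 Ltbp4 was higher than sham (log2 FC 1.16 ± 0.16, edgeR FDR = 2.31e-05). Against sham, the median of all tested genes on log2(TPM + 0.1) was 0.31 higher at day 1 and 0.57 higher at day 7. The LTBP sum was 125 ± 33.9 TPM in sham, 126 ± 9.79 TPM at day 1 and 461 ± 38.4 TPM at day 7. Within it, Ltbp2 went from 0.893% ± 0.366 in sham to 4.43% ± 1.95 and 16.8% ± 3.80, and Ltbp1 from 11.9% ± 1.82 to 12.0% ± 1.03 and 4.39% ± 0.401. Ltbp2 thus passed Ltbp1, from 0.0368 to 0.117 times its TPM in sham hearts to 2.88 to 4.91 times at day 7. The TPM of Ltbp1 itself did not fall, at 14.5 ± 2.21 in sham and 20.2 ± 1.87 at day 7.

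Tgfbi (chr13:56609523-56639562, plus strand), which binds collagens and integrins, had its highest mean at day 1. It measured 20.1, 22, 23 and 25.2 CPM in sham, 93.0, 154, 85.2 and 82.4 CPM at day 1 and 96.8, 49.9, 40.3 and 62.7 CPM at day 7. All AMI hearts were above sham, and 1 day 7 heart, replicate 1, lay within the day 1 range. Tgfbi was 4.59-fold higher than sham at day 1 (log2 FC 2.20 ± 0.25, edgeR FDR = 4.14e-05) and 2.76-fold higher at day 7 (log2 FC 1.47 ± 0.25, edgeR FDR = 0.000168). The fall from day 1 to day 7, by 0.73 ± 0.24 on the log2 scale (edgeR FDR = 0.0223), was lost without day 1 replicate 2 (-0.48, edgeR FDR = 0.0845), without day 7 replicate 2 (-0.64, edgeR FDR = 0.0676) and without day 7 replicate 3 (-0.57, edgeR FDR = 0.0628). Nor was this fall called with library sizes alone (-0.60, edgeR FDR = 0.063). In limma on log2(TPM + 1) and log2(TPM + 0.1) it was -0.52 and -0.53, not called (limma FDR = 0.112 and 0.113).

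Between day 7 and day 1, 5 of the 10 genes were higher (background 24.2%), namely Tgfb3, Tgfbr1, Tgfbr2, Ltbp2 and Ltbp3, and 2 were lower (background 22.8%), Tgfbi and Tgfbr3. Tgfb3, Ltbp2 and Ltbp3 were DEGs, with a background of 8.55%. The hearts of the 2 days did not overlap for the 5 genes that were higher (background 23.5%) or for Tgfbr3 (background 20.9% for lower values). For Tgfbr3 the gap was very small, between 50.35 CPM in the highest day 7 heart and 50.40 CPM in the lowest day 1 heart. In TPM its day 7 range of 9.94 to 14.1 overlapped its day 1 range of 11.47 to 16.25. Ltbp2 changed most, at 3.60 ± 0.24 on the log2 scale (12.1-fold, edgeR FDR = 1.24e-07), and Ltbp3 followed Tgfb3 at 1.26 ± 0.10 (edgeR FDR = 5.76e-07). Tgfbr1 rose by 0.94 ± 0.08 (edgeR FDR = 1.79e-06). Tgfbr3 fell by 0.31 ± 0.11 (edgeR FDR = 0.031). The last call was lost without day 1 replicate 3 (edgeR FDR = 0.0542), day 1 replicate 4 (0.103), day 7 replicate 1 (0.0871) or day 7 replicate 4 (0.0701).

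The sequences just upstream of 3 of these genes are shown because the sister genes Tgfb1 and Tgfb2 had day 1 log2 FCs of 0.97 and 1.94 and Ltbp2 had the largest day 7 change of the 10. Each is RefSeq sequence of GRCm38.p6, read 5′ to 3′ on the strand of the gene and ending at the base before the annotated gene: chr7:25686752-25687001 for Tgfb1, chr1:186705990-186706239 for Tgfb2 and chr12:84876533-84876741 for Ltbp2, whose window is limited to the 209 bases outside the gene as GENCODE annotates it. Capitals mark TATAAA, the TATA box core, and CAGAC or its reverse complement GTCTG, a SMAD binding element core. No capitals appear in the Tgfb1 window, whose GC content was 75.2%, while that of Tgfb2 was 53.6%.
Tgfb1: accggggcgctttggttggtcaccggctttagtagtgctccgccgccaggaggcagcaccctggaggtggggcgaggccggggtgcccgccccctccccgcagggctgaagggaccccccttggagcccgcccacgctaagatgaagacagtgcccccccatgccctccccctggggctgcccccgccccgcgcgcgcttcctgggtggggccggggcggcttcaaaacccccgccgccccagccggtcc
Tgfb2: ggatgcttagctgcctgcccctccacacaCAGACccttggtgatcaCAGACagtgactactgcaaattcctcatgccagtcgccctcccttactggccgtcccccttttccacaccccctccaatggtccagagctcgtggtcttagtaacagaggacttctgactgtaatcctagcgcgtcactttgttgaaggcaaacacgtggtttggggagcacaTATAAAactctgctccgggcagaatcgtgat
Ltbp2: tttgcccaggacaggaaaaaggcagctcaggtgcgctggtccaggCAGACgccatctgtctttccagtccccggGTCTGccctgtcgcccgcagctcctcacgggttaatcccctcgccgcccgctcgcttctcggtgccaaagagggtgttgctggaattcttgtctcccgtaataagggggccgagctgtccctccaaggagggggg

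Windows of 250 bases before the start were found for 8 of the 10 genes, all but Tgfb3 and Tgfbr3, and were searched on both strands. There were 10 windows in all, because Tgfbr1 and Ltbp1 each had a second window, which lay inside the gene. Counts of the 8 are of genes, while the background is a share of windows. TATAAA stood 31 bases before the start of Tgfb2 and in no other of the 8 genes, and 12.4% of all 32851 windows held it. CAGAC was found in 7 of the 8, at 221 and 204 bases before the start for Tgfb2, and in 42.2% of all windows. For Tgfbr1 it was found only in the second window. TGACTCA, an AP-1 motif, was in none of the 8 and in 4.46% of all windows, TGACGTCA, a CRE motif, was in Ltbp1 alone and in 1.55%, and GGGCGG, a GC box, was in 4 of the 8 and in 32.7%. These are matches of letters and not sites of binding.

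The rest of the pathway was read from lists by role. Of 18 genes of latency, activation and matrix storage, 10 were higher and 2 lower at day 1, and 15 were higher and 1 lower at day 7 against sham, with median log2 FCs of 0.59 and 1.27. For this and the lists that follow, the shares of all tested genes were 22% higher and 19.9% lower at day 1 and 30.9% higher and 28.4% lower at day 7, and the medians of all genes were -0.01 and 0.03. Thbs1, thrombospondin 1, an activator of latent TGF-β, held 8.5, 17, 8.87 and 7.79 CPM in sham, 92.4, 123, 50.0 and 42.7 CPM at day 1 and 936, 267, 131 and 176 CPM at day 7. One day 7 heart, replicate 1, stood far above the others. Its log2 FC was 2.86 ± 0.58 at day 1 (edgeR FDR = 0.00151) and 5.15 ± 0.63 at day 7 (edgeR FDR = 9.21e-06).

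Other named genes of this list encode matrix proteins. Fn1 (fibronectin), to which LTBPs attach, was 67.4 ± 3.28 CPM in sham, 273 ± 86.3 CPM at day 1 and 1738 ± 1035 CPM at day 7 (log2 FC 2.02 ± 0.32 and 4.69 ± 0.35, edgeR FDR = 0.000263 and 1.51e-07). Mfap4, a microfibril-associated protein, had a log2 FC of 0.05 ± 0.25 at day 1 (edgeR FDR = 0.9) and rose by 4.68 ± 0.27 at day 7 (edgeR FDR = 1.69e-08). Fbn2 (fibrillin 2) showed the same order, 0.34 ± 0.27 (edgeR FDR = 0.329) and then 2.71 ± 0.26 (edgeR FDR = 1.11e-06).

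Of 11 co-receptors and ligand traps, 5 were higher and 2 lower at day 1 (22% and 19.9% of all genes) and 7 were higher and 1 lower at day 7 (30.9% and 28.4%). The small proteoglycans Fmod, Aspn and Bgn, which bind TGF-β, were all higher at day 7, with log2 FCs of 3.89 ± 0.25 (edgeR FDR = 4.8e-08), 3.47 ± 0.18 (edgeR FDR = 7.16e-09) and 2.71 ± 0.13 (edgeR FDR = 3.87e-09). At day 1 only Bgn of these 3 was called, at 0.54 ± 0.12 (edgeR FDR = 0.00277). Cd109, a GPI-anchored co-receptor that restrains TGF-β signalling, went from 2.02 ± 0.678 CPM in sham to 26.9 ± 4.72 CPM at day 7 (log2 FC 3.73 ± 0.22, edgeR FDR = 2.11e-08). Eng (endoglin), the endothelial relative of betaglycan, had a log2 FC of -0.32 ± 0.15 at day 1 (edgeR FDR = 0.0944) and 0.05 ± 0.15 at day 7 (edgeR FDR = 0.775).

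Of 9 SMAD and adaptor genes matched to a single ID, 2 were higher and 1 lower at day 1, and 2 were higher and 2 lower at day 7, with median log2 FCs of -0.08 and 0.08, close to or below the 22% and 19.9% of all genes at day 1 and the 30.9% and 28.4% at day 7. Dab2, an endocytic adaptor that links the receptors to SMADs, was the 1 DEG, at 1.08 ± 0.10 at day 7 (edgeR FDR = 7.06e-07). Smad2 rose by 0.36 ± 0.11 at day 1 (edgeR FDR = 0.0204) and 0.40 ± 0.11 at day 7 (edgeR FDR = 0.00754), while Smad3 stood at 0.02 ± 0.09 (edgeR FDR = 0.89) and 0.09 ± 0.09 (edgeR FDR = 0.407). With library sizes alone, 5 of these 9 genes were higher at day 1 and 7 at day 7.

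Of 14 inhibitors of the pathway, 4 were higher and 2 lower at day 1 (22% and 19.9% of all genes) and 7 were higher and 4 lower at day 7 (30.9% and 28.4%), and the lower count at day 7 was at the background. Tgif1, a SMAD corepressor, rose by 1.38 ± 0.16 at day 1 (edgeR FDR = 4.26e-05) and by 2.27 ± 0.16 at day 7 (edgeR FDR = 9.41e-08). Tgif2, its relative, had log2 FCs of 1.02 ± 0.39 (edgeR FDR = 0.0506) and 1.89 ± 0.39 (edgeR FDR = 0.000745), and Pmepa1, a TGF-β-induced inhibitor of SMAD activation, of 0.82 ± 0.15 (edgeR FDR = 0.00085) and 1.63 ± 0.15 (edgeR FDR = 1.03e-06). Smad7, the inhibitory SMAD that TGF-β itself induces, was not called: its sham values were 16.1, 38, 18.9 and 15.2 CPM, with replicate 2 far from the rest, and its log2 FC was -0.02 ± 0.25 at day 1 (edgeR FDR = 0.949) and 0.01 ± 0.25 at day 7 (edgeR FDR = 0.965). With library sizes alone, 8 inhibitors were higher and 0 lower on either day, and limma on log2(TPM + 1) gave 10 higher at day 1 and 12 at day 7, with 0 lower.

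The genes that TGF-β is known to induce were counted last. Of 26, 17 were higher and 0 lower at day 1 (22% and 19.9% of all genes), and 25 were higher and 0 lower at day 7 (30.9% and 28.4%), with median log2 FCs of 0.95 and 2.69. Smad7 was the 1 not called at day 7. Many of the 26 also respond to other signals, and 6 of them stand on the other lists.

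Their time courses split. Timp1, a metalloproteinase inhibitor, peaked at day 1, at 2.89 ± 1.75 CPM in sham, 100.3 ± 32.6 CPM at day 1 and 45.4 ± 24.2 CPM at day 7, and fell by 1.14 ± 0.35 between the 2 days (edgeR FDR = 0.0147). Ccn2 (CTGF, listed in the files as Ctgf) was high on both days, at log2 FCs of 2.59 ± 0.43 (edgeR FDR = 0.000406) and 2.66 ± 0.43 (edgeR FDR = 0.000114).

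Postn (periostin), an activated fibroblast gene, held 24, 23.7, 28.5 and 26.8 CPM in sham, 78.5, 118, 79.3 and 73.4 CPM at day 1 and 2090.4, 1637, 1310.2 and 1515 CPM at day 7. The groups were widely separate (log2 FC 1.76 ± 0.17 at day 1, edgeR FDR = 1.07e-05, and 5.99 ± 0.20 at day 7, edgeR FDR = 1.18e-10). Cthrc1, a secreted protein of activated fibroblasts, gave 1 to 6 counts per sham library, around the 3 counts that a count of 0 allows, so no FC is given, and reached 53.4 to 128 CPM at day 7.

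**Figure D4:**
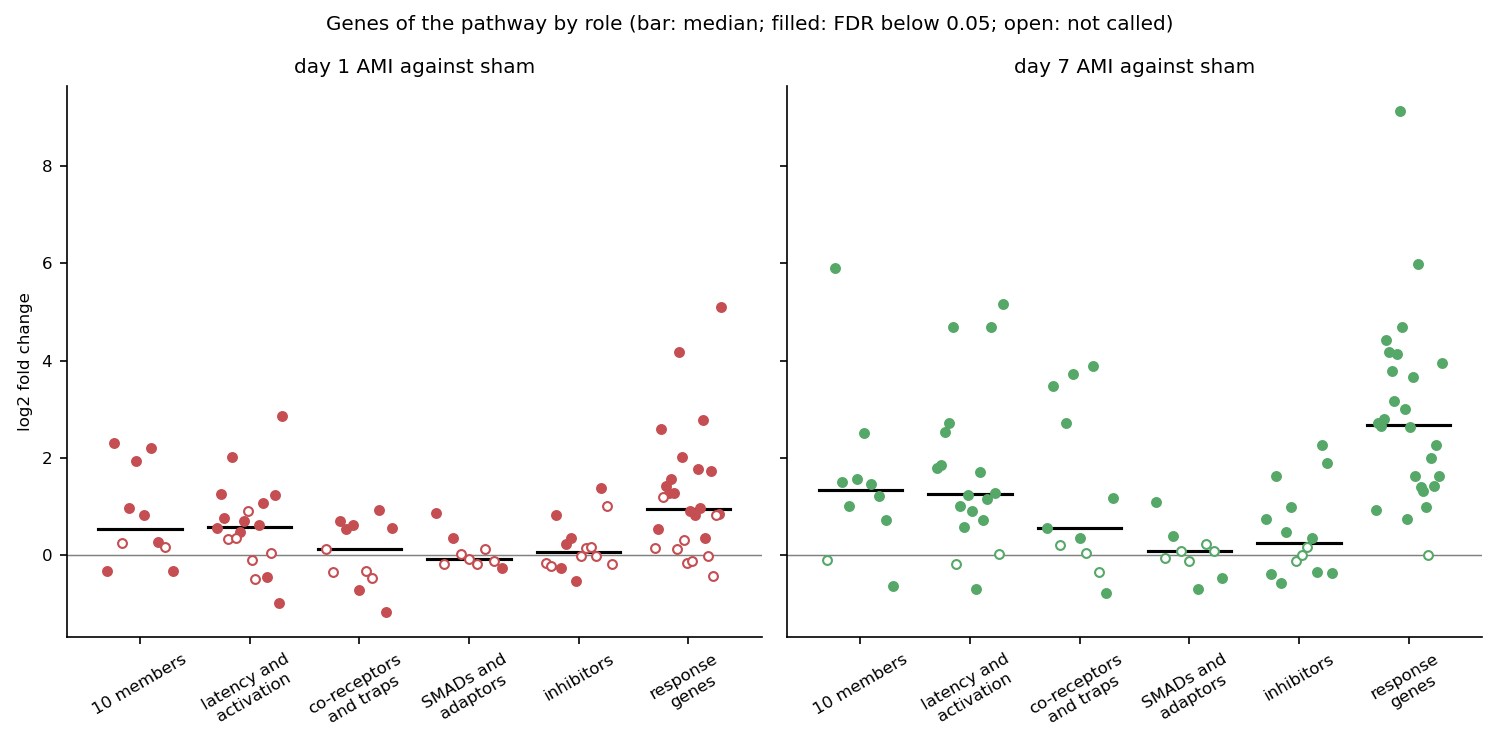
Log2 FC against sham (vertical axis) at day 1 and day 7 for the 10 genes and for 5 lists of pathway genes by role, 1 point per gene, filled where edgeR FDR was below 0.05, with the median of each list as a black bar. The median of the response genes stood at 0.95 and 2.69, the topmost day 7 point being Cthrc1, whose sham libraries were close to 0, and that of the SMADs and adaptors at -0.08 and 0.08.

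Summed levels of cell type markers also differed between the groups. The summed level of 12 macrophage markers, all above 3 counts, was 236 to 375 CPM in sham, 396 to 548 CPM at day 1 and 548 to 842 CPM at day 7. Against sham, 8 of the 12 were higher and 0 lower at day 1, and 10 were higher and 2 lower (Cd163 and Lyve1) at day 7. The summed level of 10 fibroblast markers, all detected, was 2333 to 2769 CPM, 1707 to 2233 CPM and 2906 to 3150 CPM. Gsn and Dcn carried most of this sum in sham and at day 1, but not at day 7, with means of 673 and 669 CPM. Over the 10 markers 4 were higher and 3 lower at day 1, with a median log2 FC of 0.13. At day 7 against sham, 8 were higher and 1 lower (Gsn), with a median log2 FC of 0.83. Platelet markers, of interest because platelets store TGF-β1, summed to 15.9 to 38.9 CPM, 30.4 to 42.9 CPM and 16.1 to 25.4 CPM, with 8 of 8 above 3 counts. The higher sum at day 1 was that of Pf4 (12.6 CPM in sham, 29.4 CPM at day 1), and of the 6 markers tested 1 was higher, 2 lower, and the median log2 FC was -0.74. Endothelial markers, 10 of 10 detected, summed to 1453 to 1630 CPM, 1104 to 1177 CPM and 1678 to 1853 CPM. Against sham, 0 of these were higher and 5 lower at day 1, and 6 were higher and 2 lower (Fabp4 and Vwf) at day 7. Neutrophil markers summed to a median of 19.1 CPM in sham, 84.8 CPM at day 1 (Camp and Ngp at or under 3 counts) and 12.9 CPM at day 7 (Ly6g at or under 3 counts). The sham range of 2.96 to 63.5 CPM overlapped the day 1 range of 47.8 to 169 CPM. Of the 8 neutrophil markers tested, 3 were higher and 1 lower at day 1. S100a8 and S100a9 were not called (edgeR FDR = 0.308 and 0.291). T and NK cell markers had medians of 2.50 CPM (Cd3e, Cd3d and Foxp3 at or under 3 counts), 3.95 CPM and 8.89 CPM, and epicardial markers of 20.5 CPM, 19.2 CPM and 42.3 CPM. The part of these shifts in the values of the 10 genes was not tested.

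**Figure D5:**
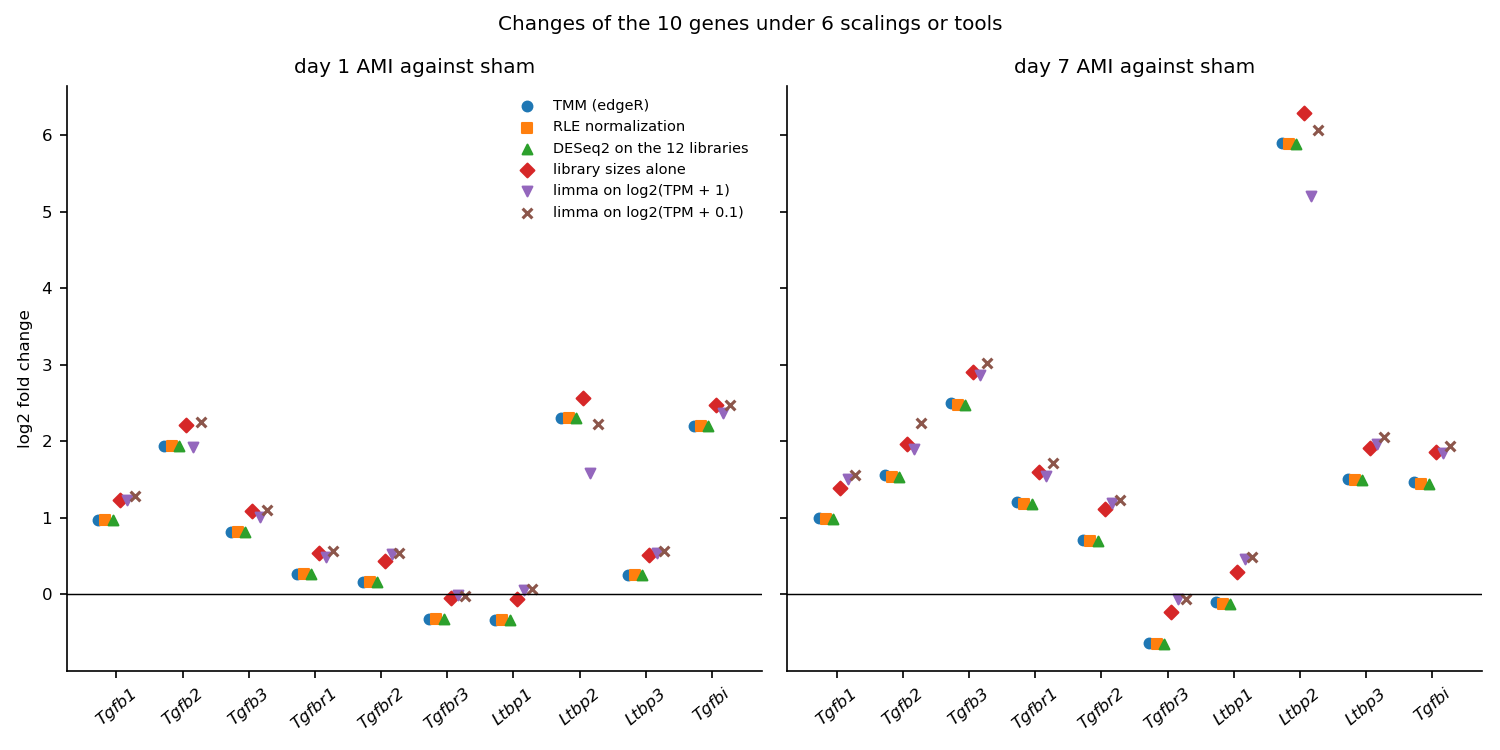
Log2 FC against sham (vertical axis) of the 10 genes at day 1 and day 7 under 6 scalings or tools, 1 symbol for each. TMM, RLE and DESeq2 values coincide, while library sizes alone and the TPM scale lie higher for most genes, and Ltbp1 crosses 0 at day 7, from -0.10 to 0.30 with library sizes alone.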

How the data were processed

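RNA from 12 mouse hearts was converted to cDNA with random hexamers and sequenced as 150-bp paired-end reads. The authors trimmed reads with Cutadapt, aligned them with STAR 2.4.0j to GRCm38 (Ensembl 92) and deposited TPM from RSEM. The deposited raw counts per gene are whole numbers, and the tool and strand setting behind them are not given in the sources used here. Per the labels, CASAVA 1.8 was also used.

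The counts were tested with edgeR 4.0.16 (TMM, filterByExpr by group, quasi-likelihood, 1 fit of the 3 groups, Benjamini-Hochberg over 15306 genes) in R 4.3.3. The SE is the absolute log2 FC divided by the square root of F. Ligand shares were tested by exact permutation in scipy 1.17.1. Alternatives were DESeq2 1.42.0, RLE scaling, library sizes alone, scaling without mitochondrial genes, no filter, only the groups compared, a replicate block, limma 3.58.1 on log2(TPM + 1) and log2(TPM + 0.1), and leaving out each heart. Scripts were tested on simulated data. No 2 libraries of a group agreed within sampling noise. The labels do not say how surgeries were spread over days or cohorts, so a difference between cohorts cannot be separated from one between groups. The p-values set group differences against the variation among these hearts only. In edgeR the variation of each gene is estimated with the help of the other tested genes.

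The 10 genes and all lists were chosen with earlier results of these data known. Pathway genes named were, for each list, up to 4 with FDR below 0.05, FC of 2 or greater and a mean of 1 CPM or more in the highest group, by largest change, plus Ltbp4, Eng, Smad2, Smad3, Smad7, Ccn2 and Postn. A further gene of this rule is not reported here. Hgs stood on more than 1 ID and was left out. Exon overlaps come from GENCODE M21.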

Additional observations from a re-analysis of the deposited data

Results flagged for a closer look

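Of 39 groups of 4 hearts examined for a value far from the rest by Dixon's criterion, 2 held one, and chance alone flags about 1 in 20 such groups. Tgfbr2 in day 7 replicate 3, at 119.7 CPM, stood below the other 3 day 7 hearts at 136 to 139 CPM. Tgfbi in day 1 replicate 2, at 154 CPM, stood above the other 3 day 1 hearts at 82.4 to 93.0 CPM, and its fall from day 1 to day 7 was not called without that heart.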

How the results depend on the processing

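Of 510 member log2 FCs recomputed under alternatives, 461 kept their direction and side of the threshold. Library sizes alone and both limma fits on TPM set the count of members called lower to 0 in all 3 comparisons and the day 1 count of DEGs higher to 5. Ltbp1 turned positive at day 1 under limma on log2(TPM + 1) (0.065) and log2(TPM + 0.1) (0.069), and at day 7 against sham under library sizes alone (0.30) and these fits (0.46 and 0.48). Tgfb1 between day 7 and day 1 ranged from -0.087 to 0.19 on leaving out 1 heart, and was -0.023 without day 1 replicate 3, -0.07 without day 1 replicate 4 and -0.087 without day 7 replicate 1. On shares of raw counts, the day 1 differences of Tgfb2 and Tgfb3 were 12.3 and -7.25 points, and that of Tgfb2 at day 7 against sham was -2.48. Leaving out 1 heart at a time, members lower ranged from 0 to 2 at day 1 and from 1 to 2 between day 7 and day 1, and DEGs lower between day 7 and day 1 from 0 to 1. The cause was not tested in any of these. With a replicate block, members higher and lower at day 1 stayed at 6 and 2, no member call changed, and the genes called higher at day 1 went from 3360 to 3137. The replicate numbers did not pair the hearts, with correlations of same-numbered libraries from -0.244 to 0.229. Among lists, limma on log2(TPM + 1) gave 6 SMADs and adaptors and 10 inhibitors higher at day 1, beside 2 and 4. With 4 hearts per group, exact permutation p cannot go below 0.0286.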

Other observations

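Single hearts stood at the same end for many of the 10 genes. At day 1, replicate 2 was the highest heart for 7 of them (Tgfb1, Tgfb2, Tgfb3, Tgfbr1, Tgfbr2, Ltbp2 and Tgfbi) and replicate 4 the lowest for 6 (Tgfb1, Tgfb2, Tgfb3, Tgfbr1, Ltbp2 and Tgfbi). Replicate 2 also had the lowest summed cardiomyocyte markers of the 4, 53955 CPM against 61962 to 66314 CPM in the others, and the highest macrophage markers, 548 CPM against 396 to 494 CPM. Replicate 4 was not its opposite. It was next lowest in cardiomyocyte markers, at 61962 CPM, and next highest in macrophage markers, at 494 CPM. At day 7, replicate 1 was the highest for 7 (Tgfb1, Tgfb3, Tgfbr1, Ltbp1, Ltbp2, Ltbp3 and Tgfbi) and the lowest for Tgfbr3, and replicate 3 was the lowest for 7. Replicate 1 had the highest macrophage markers of the day 7 hearts at 842 CPM and replicate 3 the lowest at 548 CPM, and replicate 3 had the highest cardiomyocyte markers at 57119 CPM. However, replicate 1 was not the lowest in cardiomyocyte markers, at 49544 CPM against 48587 CPM in replicate 4. Replicate 3 also had the highest fibroblast markers of the day 7 hearts, at 3150 CPM. In sham no heart was the highest for more than 4 of the 10. These are descriptions of 4 hearts a group and carry no test.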
